A study of Mus musculus with 2 samples.

Results

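Integrins are pairs of an alpha and a beta chain that span the cell membrane, and laminins are three-stranded proteins of an alpha, a beta and a gamma chain that form the sheet of basement membrane around cells. The genes of these chains were followed in 2 mouse tumours grown from RMS3 cells. A gene belonged to the set when its name on the array was Itga or Itgb with a number or a single-letter ending, or Lama, Lamb or Lamc with a number. This gave 37 of the 27672 genes or transcripts on the array: 17 integrin alpha chains, 9 integrin beta chains and 11 laminin chains. They were read by 80 probes on 98 spots. The leukocyte chain Itgad was not found under that name on the array.

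Each tumour arose from 1000000 RMS3 cells, given in 200 µl of buffer under the skin to a male C57BL/6J host 2 weeks before harvest. RMS3 is named by the labels as a PRMS line, an abbreviation they do not spell out, and no allele, age or culture passage is given. The protocol calls the harvested tumours metastatic, whereas the other labels describe tumours at the injection site. Tumour 2 and tumour 1 form 1 group with no control, 1 array each, and RNA of a whole tumour can come from host cells as well as from the injected line.

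The alpha chain largely decides what an integrin binds, so the family is usually sorted by ligand: laminins, collagens, proteins with the RGD peptide such as fibronectin and vitronectin, or counter-receptors on other cells. Bound integrins cluster and connect to actin through adaptors such as talin and kindlin. In skeletal muscle, laminins rich in the alpha2 chain hold fibres to their basement membrane through dystroglycan and the integrin alpha7 chain, and loss of either chain weakens the fibres.

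Levels are log2 signals relative to the 75th percentile of the same array, so a level can be compared between tumours but not between genes. Differences are tumour 2 minus tumour 1 on that log2 scale, and 1 is 2-fold. Array 1 carried 1128 spots flagged as outliers and array 2 carried 69, so values come from the 72.2% of spots away from such flags unless stated. Of 10 skeletal muscle marker genes with spots there 8 were above background in both tumours, beside 71.3% of all protein-coding genes. That count therefore does not test the muscle lineage of the tumours. Myog stood at -2.11 in tumour 2 and -2.24 in tumour 1. Myod1 was dim, at -5.59 in tumour 2 and -5.24 in tumour 1, and Myf5 and Pax7 were not detected in either. No p-value can be given with 1 tumour on each side, and precision is limited by the number of arrays. Probes printed 10 times give the error within an array: the difference of a spot had an SD of 0.21 at levels of -3 or more and of 0.32 below.

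Most chain genes were expressed in both tumours, and most differed little between them. Of the 37 genes 34 had spots away from flags, and 28 were above background on both arrays. On the same spots 71.3% of 15232 protein-coding genes were. A further 4 genes were above background in 1 tumour only, and Lamb3 and Lamc3 in neither. The remaining 3 (Itga7, Itga10 and Itgal) had spots near flags only. All 3 were above background on both arrays there, so that with all unflagged spots 31 of 37 genes were detected, against 70.4% of 18152 protein-coding genes.

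Of the 28 genes measured in both tumours 12 were higher in tumour 2 and 16 higher in tumour 1, while 48.5% of all 13559 measured genes were higher in tumour 2. Their median difference was -0.12, beside -0.01 over all measured genes. At least 2-fold higher in tumour 2 was 1 gene, Itga5, where the share of all measured genes was 2.56%. At least 2-fold higher in tumour 1 were 2 genes, Itgax and Itgb8, where the share was 3.75%. The difference of 20 genes exceeded the SD of a repeat spot at their level, 8 of them higher in tumour 2 (26.3% of all measured genes) and 12 higher in tumour 1 (29.4%), and 8 genes lay within it. That SD holds spot noise within the arrays and no spread between animals. With all unflagged spots, which move the median of all genes to -0.18, 11 of 31 chain genes were higher in tumour 2 (33.8% of all genes). There 1 was at least 2-fold higher in tumour 2 (5.05% of all genes) and 3, Itga4, Itgax and Itgb3, at least 2-fold higher in tumour 1 (6.21%). The lower rows lie below 95% of the flagged spots of array 1 and still hold some spots near flags. Of 23 chain genes with spots there, 15 were detected on both arrays (70.6% of protein-coding genes). Of these 7 were higher in tumour 2 (51.7% of all genes). None of them was 2-fold higher in tumour 2 there (1.87% of all genes) and 2, Itga4 and Itgb3, were 2-fold higher in tumour 1 (3.25%). The Itgb3 value in these rows comes from its probe near flags. The tumours were sampled whole, so fewer cells of a type and less RNA per cell cannot be told apart.

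**Figure D1:**
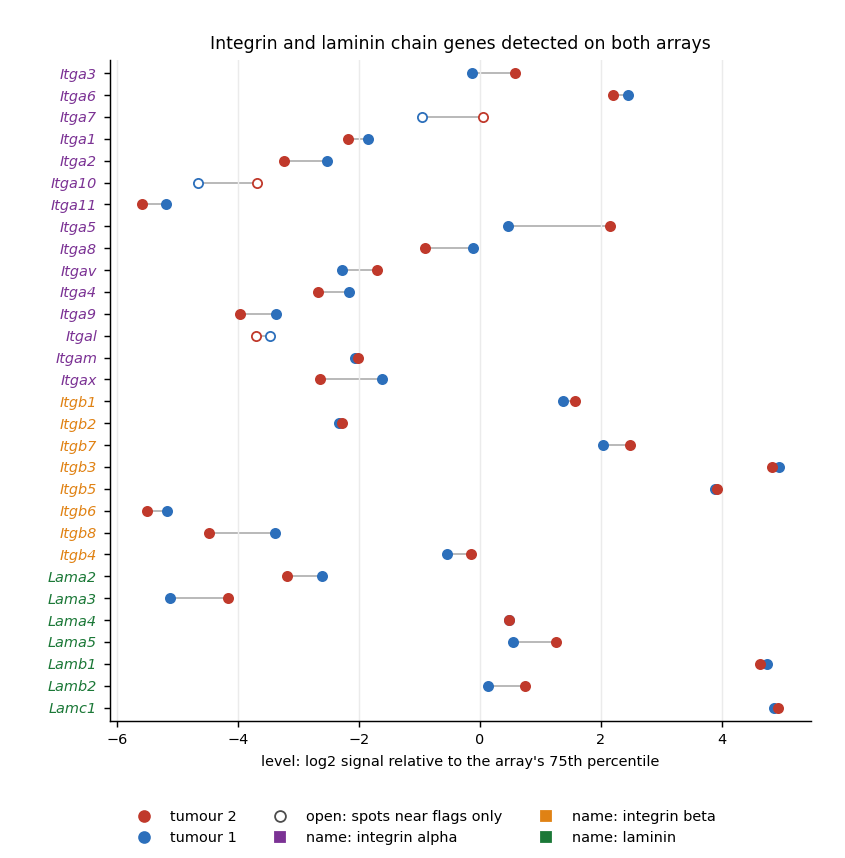
Levels of chain genes (log2 signal relative to the array's 75th percentile) in tumour 2 (red) and tumour 1 (blue), as the median of its probes, ordered by role within the alpha, beta and laminin chains, with open circles for the 3 genes with spots near flags only. Itga5 has the longest line, 2.16 in tumour 2 and 0.46 in tumour 1; for Itgb1 and Lama4, which have several probes, the median probe difference (-0.09 and -0.15) has the opposite sign to the gap between the points.

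**Figure D2:**
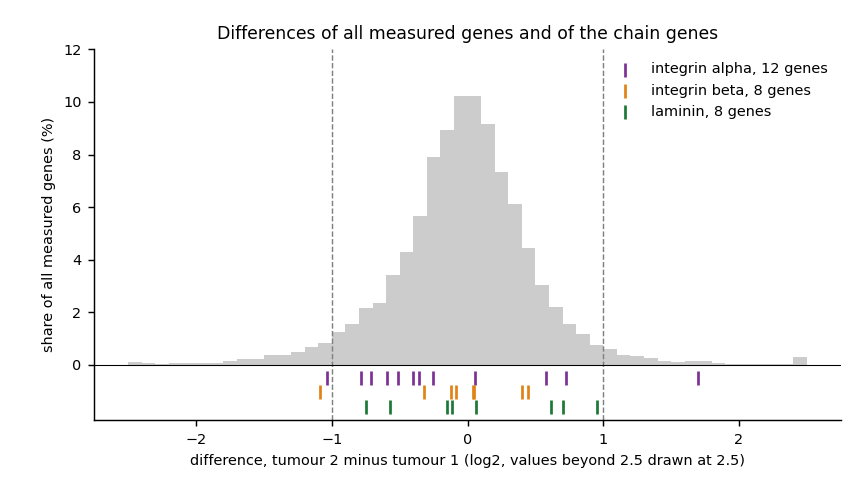
Share of all 13559 measured genes (%) by difference between tumour 2 and tumour 1 (log2, bars 0.1 wide), with the 28 chain genes as ticks below. Most ticks lie between the dashed 2-fold lines, and 1 lies to the right of them (Itga5) and 2 to the left (Itgax and Itgb8).

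The upstream sequences of the 3 genes that were at least 2-fold apart are shown as context for those genes; the arrays measure transcripts, not promoter activity. They are the 250 bases before the transcription start in RefSeq on GRCm38.p6, 5′ to 3′ on the gene's own strand: chr15:103366792-103367041 on the minus strand for Itga5, chr7:128129300-128129549 on the plus strand for Itgax and chr12:119238277-119238526 on the minus strand for Itgb8. Capitals mark matches, on either strand, to the GC box GGGCGG, the AP-1 site TGANTCA, the PU.1 core GAGGAA or the TATA box TATAAA.
Itga5: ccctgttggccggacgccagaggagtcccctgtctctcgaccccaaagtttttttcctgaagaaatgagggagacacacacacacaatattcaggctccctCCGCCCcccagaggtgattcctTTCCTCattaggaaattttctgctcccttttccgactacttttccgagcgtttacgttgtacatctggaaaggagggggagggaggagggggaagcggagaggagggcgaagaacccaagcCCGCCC
Itgax: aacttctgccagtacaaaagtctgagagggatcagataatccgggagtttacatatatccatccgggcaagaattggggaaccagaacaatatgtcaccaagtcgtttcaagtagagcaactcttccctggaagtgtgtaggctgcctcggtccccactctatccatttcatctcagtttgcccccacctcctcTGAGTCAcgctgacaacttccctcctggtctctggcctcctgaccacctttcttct
Itgb8: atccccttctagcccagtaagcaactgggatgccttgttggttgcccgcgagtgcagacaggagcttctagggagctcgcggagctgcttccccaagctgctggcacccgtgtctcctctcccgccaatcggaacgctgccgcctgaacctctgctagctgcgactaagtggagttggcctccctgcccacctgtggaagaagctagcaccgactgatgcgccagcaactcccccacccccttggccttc
The Itga5 sequence held the GC box at bases 102 to 107 and 245 to 250 and the PU.1 core at bases 124 to 129, all as the reverse complement, counted from 1 at the 5′ end. The Itgax sequence held the AP-1 site at bases 195 to 201, and the Itgb8 sequence held no match. No match overlapped another. Among the 32851 promoters in the table, cut to the same length, 32.7% held the GC box, 6.75% the AP-1 site, 23.3% the PU.1 core and 12.4% the TATA box. A promoter was listed for 24 of the 37 chain genes, 27 in all, and of these 33.3% held the GC box, 3.70% the AP-1 site, 51.9% the PU.1 core and 0% the TATA box. These matches describe letters only.

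Among the laminin-binding alpha chains, Itga3 was higher in tumour 2 on every probe. Itga3 encodes a receptor chain for laminins with the alpha3 or alpha5 chain. Its 3 probes read levels of -3.60, 0.59 and 1.30 in tumour 2 and -4.79, -0.14 and 1.05 in tumour 1, differences of 1.19, 0.72 and 0.25. Their median of 0.72 was under 2-fold, although the dimmest probe was over it. Itga6, which pairs with beta1 or, in hemidesmosomes, with beta4, had probes of opposite sign. A first probe stood at 1.16 in tumour 2 and 1.84 in tumour 1, and another at 3.24 in tumour 2 and 3.06 in tumour 1. Its median difference of -0.25 therefore carries no common direction, and a further probe was flagged.

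Itga7, the laminin receptor chain of muscle fibres, was read only near flags. Levels were 0.47 and -0.38 in tumour 2 and 0.00 and -1.93 in tumour 1 on its 2 probes. Both were higher in tumour 2, by 0.46 and 1.55, with a median of 1.01 on the scale of the spots away from flags and of 0.81 when all unflagged spots set the scale, on either side of 2-fold. Around the second spot, 55 neighbouring spots had a median difference of 0.41, and around the first, 75 had a median of about 0. The muscle markers moved in the same direction for 6 of their 8 measured genes. Their summed signal was 9.38 in tumour 2 and 5.19 in tumour 1 (multiples of the 75th percentile). Here and for the other marker lists, such a sum is set mostly by the brightest genes and does not describe the whole list. Among the muscle markers Myh3, the embryonic myosin, was 1.07 higher in tumour 2. Their part in the result was not tested.

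The collagen-binding alpha chains were all lower in tumour 2 where they were measured away from flags, each by less than 2-fold. Itga1, a receptor chain for basement membrane collagen, had levels of -2.47, -2.18 and 0.26 in tumour 2 and -2.11, -1.85 and 0.93 in tumour 1. All 3 probes were lower in tumour 2, with differences of -0.36, -0.33 and -0.67, while a probe near flags differed by 0.15 where its 42 neighbours had a median of 0.80. Itga2, the collagen receptor chain of platelets and epithelia, stood at -3.24 in tumour 2 and -2.53 in tumour 1. Itga11, a collagen receptor chain of fibroblasts, stood at -5.59 in tumour 2 and -5.19 in tumour 1, near the lowest detected levels of -6.33 in tumour 2 and -5.78 in tumour 1. The differences were -0.71 for Itga2 and -0.40 for Itga11, the second little more than the SD of a dim repeat spot. Another Itga2 probe, on a spot near flags, had a signal of 24.1 in tumour 2 and of 3.70 in tumour 1, where it was not well above background.

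Itga10, the collagen receptor chain of cartilage, went the other way on a spot near flags: -3.68 in tumour 2 and -4.67 in tumour 1, or 0.99 apart. Its 58 neighbouring spots had a median difference of -0.06. Fibroblast markers were all lower in tumour 2, 7 of 7, as the collagen-binding chains away from flags were. Their summed signal was 97.0 in tumour 2 and 108 in tumour 1, and the matrix genes Dcn and Mfap5 were over 2-fold lower in tumour 2 (-1.12 and -1.95). Their part in the result was not tested.

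Itga5, the fibronectin receptor chain that pairs with beta1, had the largest difference of the 28 measured genes. Its probe gave a processed signal of 4019 in tumour 2 and 1370 in tumour 1, or levels of 2.16 in tumour 2 and 0.46 in tumour 1, with a mean of 1.31 ± 1.20 (SD, n = 2 tumours). The gene was thus 3.24-fold higher in tumour 2. The difference of 1.69 was several times the repeat-spot SD of 0.21, and the 57 spots around it had a median difference of -0.06. It stayed between 1.02 and 1.80 under the 11 alternative treatments that gave it a value, though it rests on 1 spot of 1 probe.

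The other RGD-binding alpha chains gave no common direction. Itgav, which pairs with several beta chains and binds vitronectin, had 4 probes with levels between -4.26 and 2.03 in tumour 2 and between -5.21 and 2.30 in tumour 1. The brightest probe was lower in tumour 2 (-0.27) and the other 3 were higher (0.37, 0.79 and 0.95), with a median of 0.58. Itga8, a chain of smooth muscle and kidney mesenchyme that binds nephronectin, stood at -0.90 in tumour 2 and -0.12 in tumour 1. Another probe near flags had the same sign for Itga8, at -0.37 in tumour 2 and 0.20 in tumour 1. The differences of -0.78 and -0.57 were each larger than the repeat-spot SD.

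Itga2b, the platelet chain that binds fibrinogen with beta3, was above background in tumour 2 only. Its level was -4.59 in tumour 2, and in tumour 1 the probe read -6.27, which is not well above background. This makes the gene at least 2.27-fold higher in tumour 2, taking the lowest detected level of array 1 as the limit. Of the 7 platelet markers with spots away from flags 5 were measured in both tumours and 4 of these were higher in tumour 2, among them Gp9 (-2.01 in tumour 2 and -2.98 in tumour 1) and Treml1 (1.08 higher). Gp1ba was above background in tumour 2 only, as Itga2b was. The summed signal of the 5 measured markers was 13.9 in tumour 2 and 15.1 in tumour 1, opposite to the count. Their part in the result was not tested.

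Itga4 and Itga9, chains that bind Vcam1, fibronectin or tenascin, had lower values in tumour 2. For Itga4, the brighter probe stood at -1.20 in tumour 2 and -0.12 in tumour 1, and the dimmer at -4.16 in tumour 2 and -4.21 in tumour 1. These differences of -1.07 and 0.05 lie over 2-fold apart, and their median of -0.51 describes neither probe. A further Itga4 probe on a spot near flags was also lower in tumour 2, at -4.79 there and -3.94 in tumour 1. Its 51 neighbouring spots had a median difference of 0.64. Another Itga4 probe near flags went the other way, at -6.18 in tumour 2 and -6.92 in tumour 1, where it was not well above background. For Itga9 the level was -3.97 in tumour 2 and -3.38 in tumour 1, which makes -0.59.

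Of the leukocyte chains, Itgb2 and Itgam differed least between the tumours. Itgb2, the beta chain that all leukocyte alphaL, alphaM and alphaX integrins share, stood at -2.27 in tumour 2 and -2.32 in tumour 1. Itgam, the alpha chain of macrophages and neutrophils, stood at -2.01 in tumour 2 and -2.06 in tumour 1. Both differences, 0.05 and 0.06, were within the repeat-spot SD, as was 0.12 on an Itgam probe near flags. Itgal, the alpha chain of lymphocyte adhesion, was read near flags at -3.67 and -3.74 in tumour 2 and at -3.70 and -3.24 in tumour 1. Its 2 probes differed by 0.03 and -0.49 and show no common direction.

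Itgax, the chain known as CD11c on dendritic cells and some macrophages, had a processed signal of 144 in tumour 2 and 325 in tumour 1. Its levels were -2.65 in tumour 2 and -1.61 in tumour 1, a mean of -2.13 ± 0.73 (SD, n = 2 tumours), so that it was 2.05-fold lower in tumour 2. Another probe for Itgax was not detected in either tumour. Myeloid markers were measured in 7 of 8 cases and were higher in tumour 2 for 2 and lower for 5, none by 2-fold, with Ptprc at -0.22, Cd68 at 0.22 and Adgre1 at -0.64. Their summed signal was 10.9 in tumour 2 and 12.6 in tumour 1, a smaller gap than that of Itgax, and their part in the result was not tested. The Itgax value lies just over 2-fold, and it fell short of it without the detection filter (-0.93) and with a normexp background correction fitted without high-background spots (-0.78). Normexp fitted with those spots, which moved the median of all genes to 0.68, turned it to 1.06.

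Itgb7, which pairs with alpha4 or alphaE on lymphocytes, was higher in tumour 2, at 2.47 there and 2.03 in tumour 1. The difference of 0.44 was above the repeat-spot SD but under 2-fold. Its partner Itgae, the chain of T cells within epithelia, was above background in tumour 1 only, at -5.99 in tumour 2 and -5.17 in tumour 1. These readings of 1 dim spot differ by 1.77-fold. Another Itgae probe, near flags, was not well above background in either tumour. Itgb2l, a gene related to Itgb2, was above background in tumour 2 only, at -5.62 there and -7.12 in tumour 1, a bound of at least 1.12-fold. Lymphocyte markers were nearly absent: 1 of the 9 with spots, Cd3e, was detected in both tumours, at -4.77 in tumour 2 and -5.01 in tumour 1. Of the 6 neutrophil markers with spots 4 were measured in both tumours, and Mpo and Elane were detected in neither tumour. All 4 were higher in tumour 2 (48.5% of all measured genes), with S100a8 at 4.09 in tumour 2 and 3.62 in tumour 1. S100a9, the brightest, stood at 6.17 in tumour 2 and 5.81 in tumour 1. The summed signal of the 4 markers was 89.2 in tumour 2 and 68.4 in tumour 1. Their part in these results was not tested.

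Itgb1 is the partner of most laminin, collagen and fibronectin receptors, and a probe printed 10 times made it the best measured chain. On its 7 spots away from flags the level was 2.78 ± 0.05 in tumour 2 and 3.16 ± 0.04 in tumour 1 (SD over spots). Every spot was lower in tumour 2, with differences between -0.44 and -0.29 and a mean of -0.38 ± 0.05. The groups of spots do not overlap, yet another probe for the same gene read 1.57 in tumour 2 and 1.37 in tumour 1, and the dimmest -4.22 in tumour 2 and -4.14 in tumour 1. With differences of -0.38, 0.20 and -0.09 the gene has no common direction, and the spread between probes exceeds that between spots.

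The same probe shows what the flagged area of array 1 can do. An unflagged spot of it near flags gave a signal of 11.9 in tumour 1, where its other 9 spots gave 8540 to 9810, while all 10 spots in tumour 2 gave 5913 to 6491. Neighbouring spots of that lost spot had a median difference of 2.90 over 21 spots. Over all probes printed 10 times the SD of a spot's difference was 0.23 away from flags and 0.89 with all unflagged spots.

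**Figure D3:**
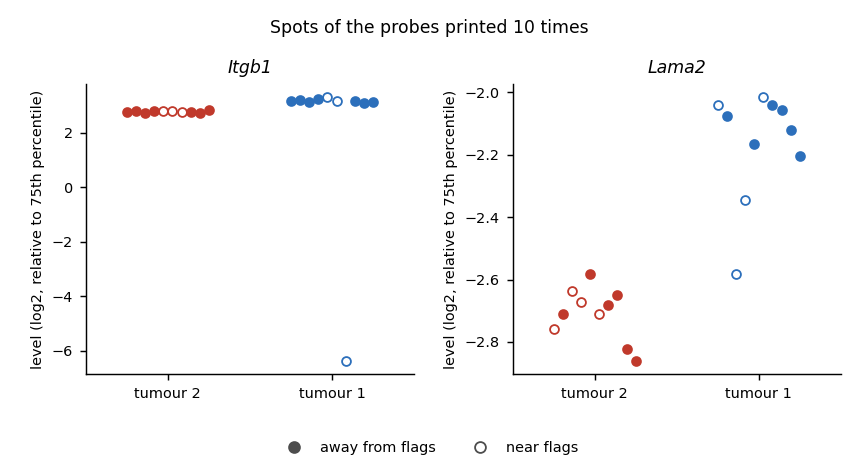
Level (log2, relative to the array's 75th percentile) of every unflagged spot of the probes printed 10 times for Itgb1 and Lama2, in tumour 2 (left) and tumour 1 (right), with filled points for spots away from flags and open points for spots near them. Filled points of the tumours do not overlap for either probe, and 1 open Itgb1 point lies at -6.39 in tumour 1, far under the other 9.

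Of the beta chains that pair with alphav, Itgb3 and Itgb5 differed little on their probes away from flags. Itgb3, which forms the vitronectin receptor with alphav and the platelet fibrinogen receptor with alphaIIb, stood at 4.82 in tumour 2 and 4.95 in tumour 1. Itgb5, another partner in vitronectin receptors, stood at 3.92 in tumour 2 and 3.88 in tumour 1. Both differences, -0.12 and 0.04, were within the repeat-spot SD. A further Itgb3 probe went far from this on a spot near flags: its signal was 3598 in tumour 2 and 15500 in tumour 1, levels of 2.00 in tumour 2 and 3.96 in tumour 1. That probe was 3.90-fold lower in tumour 2 while its 59 neighbouring spots had a median difference of -0.01, so the probes of Itgb3 disagree.

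Itgb8, which with alphav releases TGF-beta from its latent form, was 2.12-fold lower in tumour 2. Of its 2 detected probes away from flags, the brighter had a signal of 58.3 in tumour 2 and 211 in tumour 1. The dimmer had 28.0 in tumour 2 and 42.5 in tumour 1. Levels were -3.95 and -5.01 in tumour 2 and -2.24 and -4.55 in tumour 1. Both probes were lower in tumour 2, with differences of -1.71 and -0.46, as was a probe near flags (-0.54), so a single probe carries the 2-fold call. The call was lost with all unflagged spots (-0.74), in the lower rows (-0.46), without the detection filter (-0.46) and with the normexp correction fitted without high-background spots (-0.58), and normexp fitted with those spots turned it to 1.99. Itgb6, the epithelial chain that also releases TGF-beta, stood at -5.50 in tumour 2 and -5.18 in tumour 1. Its difference of -0.32 was close to the SD of dim repeat spots. The other Itgb6 probes were not well above background in either tumour.

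Itgb4 joins alpha6 in hemidesmosomes, the anchors of epithelial cells. Its 2 detected probes read -0.07 and -0.22 in tumour 2 and -0.45 and -0.64 in tumour 1. Both were higher in tumour 2, by 0.38 and 0.42. The keratinocyte markers held the 2 largest differences of all lists: Krt5 stood at -1.66 in tumour 2 and -5.21 in tumour 1, and Krt14 at -0.62 in tumour 2 and -4.26 in tumour 1. Of the 6 measured keratinocyte markers 5 were higher in tumour 2, with a summed signal of 18.8 in tumour 2 and 16.1 in tumour 1, while Trp63 and Dsg3 were not detected in either tumour. Their part in the Itgb4 result was not tested.

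**Figure D4:**
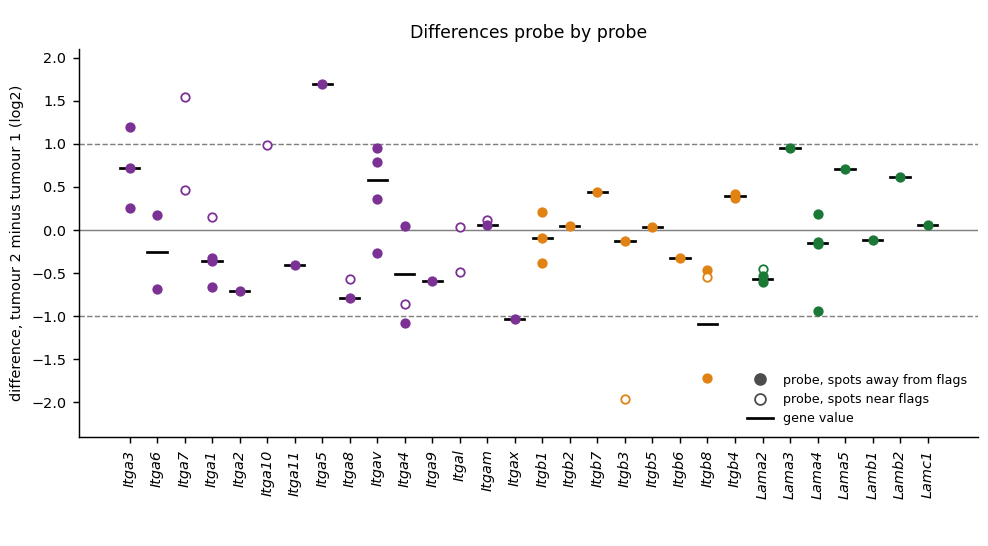
Difference between tumour 2 and tumour 1 (log2) of probes above background on both arrays, gene by gene, with filled points for spots away from flags, open points for spots near them and black bars for the gene value. Of the 10 genes with several filled probes 5 have probes on both sides of 0 and 4 have probes at least 2-fold apart, and the open Itgb3 probe lies at -1.97.

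Laminin alpha chains, which carry the binding sites for integrins and dystroglycan, split evenly. Lama2, the chain of muscle and nerve basement membranes, was lower in tumour 2 on both its detected probes. On 6 spots of the probe printed 10 times it stood at -2.72 ± 0.11 in tumour 2 and -2.11 ± 0.06 in tumour 1 (SD over spots), and the spots differed by -0.61 ± 0.10. A second probe read -3.66 in tumour 2 and -3.13 in tumour 1, or -0.54 with the same sign, so for Lama2 the spots and the probes go one way. Schwann cell markers, from cells that also make Lama2, were lower in tumour 2 in 5 of 5 measured cases, with a summed signal of 2.32 in tumour 2 and 3.03 in tumour 1. The muscle markers went the opposite way to Lama2, and neither part was tested.

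Lama3, a chain of epithelial laminins, stood at -4.17 in tumour 2 and -5.12 in tumour 1. This difference of 0.95 was the largest among the laminins and just short of 2-fold. It rests on 1 dim spot of 1 probe, and it ranged from 0.34 to 2.88 under the 11 alternative treatments that gave it a value. Another Lama3 probe was not well above background in either tumour and differed by -0.10. The Lama3 partner Lamb3, a beta chain, was not well above background in either tumour, at -7.26 in tumour 2 and -7.83 in tumour 1.

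Lama5, the chain of most adult epithelial and vascular basement membranes, was higher in tumour 2, at 1.26 there and 0.55 in tumour 1, and differed by 0.71. Lama4, the chain of blood vessels, had 4 probes, with levels of 1.87, 0.77, 0.21 and -5.25 in tumour 2 and 2.01, 0.93, 0.02 and -4.31 in tumour 1. Its 3 brighter probes differed by at most 0.19 in size and the dimmest by -0.94, with a median of -0.15. Endothelial markers were lower in tumour 2 in 8 of 9 measured cases, with Cdh5 at -0.26 and Kdr at -0.45 and a summed signal of 7.49 in tumour 2 and 10.5 in tumour 1, and their part was not tested. Lama1, the chain of the early embryo, was above background in tumour 2 only, at -5.02 there and -7.02 in tumour 1, at least 1.69-fold higher in tumour 2. That bound rests on 1 spot of 1 probe, and another Lama1 probe was not well above background in either tumour.

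The beta and gamma chains found in most laminins were bright and nearly equal. Lamb1 had a signal of 22283 in tumour 2 and 26600 in tumour 1, and its level averaged 4.68 ± 0.08 (SD, n = 2 tumours). Lamc1 had a signal of 27368 in tumour 2 and 29000 in tumour 1, with a mean level of 4.89 ± 0.04 (SD, n = 2 tumours). Their differences of -0.11 and 0.06 lay within the repeat-spot SD. Lamb2, the chain of neuromuscular synapses and kidney filters, was higher in tumour 2, at 0.75 there and 0.13 in tumour 1, and differed by 0.61. Lamc3, a rarer gamma chain, was not well above background on any of its 3 probes in either tumour.

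Medians are given by chain class and by role, and those by role rest on few genes each, so their spread is not compared. The integrin alpha chains had a median difference of -0.38 over 12 genes, 4 higher in tumour 2 and 8 higher in tumour 1. The 8 beta chains had -0.02 and the 8 laminin chains -0.03, each with 4 genes in either direction. Within the alpha chains the collagen-binding genes had -0.40 (3 genes) and the alpha4 and alpha9 genes -0.55 (2 genes). The RGD-binding genes had 0.58 (3 genes, from -0.78 to 1.69). The laminin-binding genes had 0.23 (2 genes) and the leukocyte alpha chains -0.49 (2 genes).

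Other genes of the same pathway were mostly within 2-fold, too. The 20 measured adaptors and kinases had a median of 0.08, and 13 were higher in tumour 2. Talin, Tln1, which switches integrins on, stood at 2.01 in tumour 2 and 1.55 in tumour 1. The adaptor paxillin, Pxn, was the only adaptor at least 2-fold higher in tumour 2 (1.02), at 0.87 there and -0.15 in tumour 1. The epithelial kindlin Fermt1 was the only adaptor at least 2-fold lower, at -5.54 in tumour 2 and -3.36 in tumour 1.

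Basement membrane partners of laminin had a median of 0.24, and 8 of the 9 measured were higher in tumour 2, none by 2-fold. Nid2, which links laminin to type IV collagen, stood at 0.12 in tumour 2 and close to 0 in tumour 1, and every spot of Nid1 was flagged. The 14 measured integrin ligands other than laminins had a median of 0.13, and 9 were higher in tumour 2. Fn1, the ligand of the Itga5 receptor, stood at 0.47 in tumour 2 and 0.45 in tumour 1. Postn, a matrix ligand of alphav integrins, was the only ligand at least 2-fold apart, at 3.05 in tumour 2 and 4.36 in tumour 1. The 9 measured membrane partners had a median of 0.09, and 6 were higher in tumour 2. They include the tetraspanins Cd9 at -0.34 and Cd81 at -0.08.

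Markers of pericytes and smooth muscle were the list with the largest median, 0.88 over 6 genes. Of these 4 were higher in tumour 2 and 2 were lower there, the lowest at -0.51. Their summed signal was 3.87 in tumour 2 and 2.27 in tumour 1. Tagln and Des, genes of contractile cells, passed 2-fold towards tumour 2 (1.03 and 1.24), whereas Myh11, the defining smooth muscle myosin, was not detected in either tumour. Itga8, a chain of smooth muscle, went the opposite way (-0.78), and the part of these cells in the chain genes was not tested.

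**Figure D5:**
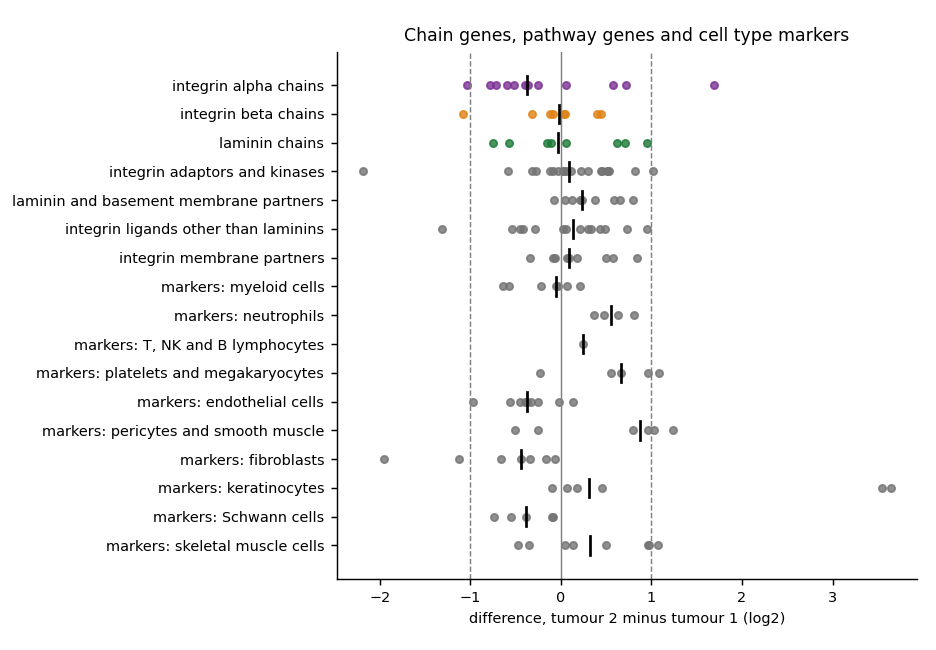
Differences between tumour 2 and tumour 1 (log2) of single genes in the chain classes, the pathway lists and the cell type marker lists, with a black bar at each median and dashed lines at 2-fold. Keratinocyte markers reach 3.64 (Krt14), the adaptors reach -2.18 (Fermt1), and the medians of the chain classes lie between -0.38 and -0.02.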

How the data were processed

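RNA of each tumour was labelled with Cy3 and hybridised to a single-colour Agilent mouse array, 1 array per tumour, per the labels' protocols. Both arrays share a slide and a scan per the file headers, so neither could be tested as a batch. The authors' deposited intensity values (processed signal) come from Agilent Feature Extraction. Its version is 9.1.3.1 in the file headers but 8 in the submitters' processing notes. The probe annotation's genome build is not given in the sources used here. The deposited value table equals the processed signal intensity at all 45018 spots.

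From these values, spots flagged as outliers, spots up to 2 rows and columns from a flagged outlier on array 1 and spots as close to a local background above 100 on array 2 (11 spots) were left out. Levels are the log2 ratio of the processed signal to its 75th percentile on that array (902 for tumour 2 and 995 for tumour 1). A probe was detected where at least 50% of its spots were well above background (66.1% of spots on array 2 and 62.3% on array 1), and a gene where a probe was detected on both arrays. Its difference is the median over such probes, and 2-fold was the call. A chain above background on 1 array has a bound against the higher of the other array's lowest detected level and the probe's own reading there. No chain spot was saturated. A chain gene that is part of the counts and medians is not reported here by name.

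Names came from the file of tumour 2, where 47 names differ from the other file, 0 of them chain genes. Names with bp and Itgbl1 were left out, as were 3 probes under older names of Itgav or Itga9. No column was left without a sample. Of 166 listed pathway and marker genes 163 were on the array. Every chain gene could be named, and of the other lists the first 3 members and those at least 2-fold apart, beside defining markers that were not detected, which were added after the data were seen. The members and lists were chosen with earlier results of these data known. No test was run, as each side has 1 tumour. The labels do not say whether the hosts were littermates, and the SD of 2 tumours covers these samples only. The software was Python 3.11.15, numpy 2.4.6, pandas 2.3.3, R 4.3.3 and limma 3.58.1, and the procedure was tested on simulated data. Alternatives in the choice of spots were all unflagged spots and only the rows below 95% of the flagged spots of array 1. Alternatives in scale were quantile scaling, loess scaling with a span of 0.3, scaling by the median of detected spots and the value table as it is. Others were normexp with an offset of 50 for background, no detection filter and only the brighter 50% of probes. A gene's brightest probe was also used, and each tumour was left out. After the data were seen, normexp fitted without the high-background spots and centring on neighbours within 5 rows and columns were added.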

Additional observations from a re-analysis of the deposited data

How the results depend on the processing

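Of the 28 chain genes, 0 moved by more than 0.23 under quantile scaling, loess scaling or local centring, although 2 signs changed under quantile scaling. The 0.23 is the SD of a repeat spot's difference within the arrays. Scaling by the median of detected spots and the unscaled value table shift every gene by the same amount, under 0.23. They therefore cannot test single genes, and 4 signs changed in the unscaled table. Detected genes numbered 28, against 15 in the lower rows and 18 among the brighter 50% of probes, which test fewer spots, and 29 to 31 with each tumour left out. Genes at least 2-fold higher in tumour 2 numbered 1, against 0 in the lower rows (where Itga5 has no spot), 14 with normexp (43.7% of all genes), 3 with no detection filter (3.93%) and 2 with local centring (2.45%). Genes at least 2-fold higher in tumour 1 numbered 2, against 0 with no detection filter (5.67% of all genes), 1 in the brighter 50% of probes (1.10%) and 0 with normexp fitted without high-background spots (1.05%). Normexp with those 11 spots moved the median of all genes to 0.68 and that of the chain genes to 0.75. It left 2 of the 28 genes within 0.23 of their value, changed 12 signs, and turned Itgax to 1.06 and Itgb8 to 1.99. Fitted without them the medians were -0.01 and -0.07, 10 genes moved and 2 signs changed. The brightest probe moved 7 genes and changed 2 signs, and all unflagged spots moved 3 and changed 5 signs. The lower rows moved 5 of 15 genes, the brighter 50% of probes 4 of 18 and no detection filter 3 of 28. All unflagged spots and the unscaled table moved the median of all genes to -0.18 and -0.16, and no detection filter to -0.16. All unflagged spots also moved Itgb3 to -1.24, through its probe near flags, and Itga4 to -1.05. Signal near background limits Itga11, Itgb6, Lama3 and the genes with a bound. No paired analysis was possible because there is 1 group of 2 tumours.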
